A study of Mus musculus with 8 samples.

Results

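The 54 genes described here act in G2 and mitosis: the cyclins and kinases that start division, the spindle, kinetochore and checkpoint proteins that segregate the chromosomes, the condensins that compact them and the machinery of cytokinesis. They were a list given by symbol, matched to the locus names of a table of 25477 loci, and where several loci carried a symbol the one of highest mean was taken (Kif22 and Racgap1). All 54 were found, and all 54 passed the filter of a mean of at least 1 FPKM (fragments per kilobase of exon, relative to all fragments of a library) that left 11417 loci to be tested. The RNA came from lymphoma cells taken from the spleens of mice and sorted for green fluorescent protein (GFP) and for B220, which B cells carry on their surface. In 4 libraries the cells carried shCrebbp, a short hairpin RNA against Crebbp, whose product is a lysine acetyltransferase that coactivates transcription, and in 4 libraries they carried a scramble hairpin as the control. The names of shCrebbp 3 and 4 begin with AO229, those of shCrebbp 1 and 2 with AO228, and those of scramble 1 to 4 with AO227. What a prefix stands for, whether libraries came from separate mice, and the strain, age and driver of the lymphoma are not given in the sources used here. The spread behind every p-value is therefore the spread among libraries, and it may be technical.

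Genes of this kind are transcribed in waves in dividing cells. Their products are made as cells pass through G2, drive the assembly of the spindle and the separation of sister chromatids, and are in many cases destroyed at mitotic exit. In a tissue the summed level of such transcripts depends on how many cells are dividing, and in a bulk library fewer dividing cells and less RNA per dividing cell cannot be told apart. Many of their promoters carry CCAAT boxes, the recognition sequence of the trimer NF-Y, and the cell cycle genes homology region (CHR), which is bound by the MuvB complex with B-Myb or the DREAM repressor.

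Promoter windows of RefSeq (build GRCm38.p6, 250 bases before to 50 after the start, 300 in all) were at hand for 44 of the 54 members, and not for Aurkb, Ccna2, Cdc25c, Cdca2, Foxm1, Incenp, Kif20a, Smc4, Spc24 and Tpx2. The letters CCAAT stood on either strand in 33 windows (75%), against 37.4% of the 32851 windows of the table. For each listed gene 1 window was taken, that with its start nearest the 5′ end of the locus. The 32851 windows were not chosen in this way, nor limited to loci tested, so the shares also reflect the choice of windows. At least 2 such matches stood in 50% of member windows, against 11.7%. The CHR letters, TTTGAA or TTCGAA on either strand, stood in 35 member windows (79.5%), against 19.2% of all windows, and both motifs stood in 68.2%, against 7.52%. Related lists shared this in part: CCAAT letters stood in 63.5% and CHR letters in 51.4% of 74 windows of other mitosis and G2/M genes, and in 55.3% and 19.1% of 47 windows of DNA replication and G1/S genes. The median GC content was 58.5% in member windows and 52.7% in all windows, and matches of the motifs shared bases in 1 member window. Below are the 120 bases upstream of the start of 7 members, read 5′ to 3′ on the strand of the gene, with matches to either motif in capitals. They show windows with both motifs (Cdk1, Kif11, Cdc20, Ube2c, Top2a), with CCAAT letters alone (Ccnb1) and with neither (Ncaph). A match is a description of the letters and no sign of binding in these cells.

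Cdk1 (chr10:69352913-69353032, minus strand): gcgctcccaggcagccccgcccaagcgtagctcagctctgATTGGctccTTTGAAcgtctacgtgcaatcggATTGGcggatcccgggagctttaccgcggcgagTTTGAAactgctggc
Kif11 (chr19:37376262-37376381, plus strand): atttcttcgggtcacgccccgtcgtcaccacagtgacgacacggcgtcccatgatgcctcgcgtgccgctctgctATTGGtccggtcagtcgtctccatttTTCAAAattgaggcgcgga
Cdc20 (chr4:118437344-118437463, minus strand): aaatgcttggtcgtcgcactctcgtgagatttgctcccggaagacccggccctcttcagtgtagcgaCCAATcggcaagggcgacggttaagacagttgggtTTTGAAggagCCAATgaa
Ube2c (chr2:164769809-164769928, plus strand): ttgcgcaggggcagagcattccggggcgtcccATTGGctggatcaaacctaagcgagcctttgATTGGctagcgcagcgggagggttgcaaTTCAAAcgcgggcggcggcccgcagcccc
Top2a (chr11:99024190-99024309, minus strand): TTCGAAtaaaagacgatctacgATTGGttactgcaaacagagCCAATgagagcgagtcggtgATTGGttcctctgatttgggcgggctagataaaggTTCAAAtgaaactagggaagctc
Ccnb1 (chr13:100786487-100786606, minus strand): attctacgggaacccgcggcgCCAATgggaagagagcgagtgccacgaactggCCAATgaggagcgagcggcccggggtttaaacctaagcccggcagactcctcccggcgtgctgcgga
Ncaph (chr2:127133955-127134074, minus strand): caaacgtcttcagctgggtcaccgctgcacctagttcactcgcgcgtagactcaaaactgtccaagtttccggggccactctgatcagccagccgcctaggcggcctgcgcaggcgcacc

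The depth of the libraries is unknown, since the table holds FPKM and no counts; the share of loci listed at 0 ran from 33.2 to 46.0% in the shCrebbp libraries and from 42.4 to 51.8% in the scramble libraries, highest in scramble 2. Crebbp itself measured 23.4 and 19.3 FPKM in the AO229 libraries, 18.9 and 26.6 FPKM in the AO228 libraries, and 33.7, 22.9, 21.3 and 25.8 FPKM in the scramble libraries. The groups overlapped and the difference of -0.22 on the log2 scale did not pass (limma adjusted p = 0.915), so the transcript of the targeted gene does not set the libraries labelled shCrebbp apart. All 8 B cell markers were expressed, with summed levels of 2675 to 3374 FPKM in the shCrebbp libraries and 2512 to 3014 FPKM in the scramble libraries. Of the markers of other cells, T cell genes summed to 20.7 to 34.5 FPKM with shCrebbp and 22.02 to 45.8 FPKM with scramble.

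Members were transcribed at moderate levels. Over the 8 libraries, the 52 members whose row names 1 gene had mean levels of 1.22 to 43.2 FPKM with a median of 6.53 FPKM, against a median of 9.24 FPKM over all loci tested, and 16 of them reached 10 FPKM. The intervals deposited with these rows are not gene boundaries: 12 of the 52 share theirs exactly with another row, for example Nusap1 with Oip5, Ccna2 with Exosc9 and Cdc20 with Elovl1, and whether reads of such neighbours were kept apart was not tested. The rows of the other members name further genes. The locus of Foxm1 also covers 4933413G19Rik. That of Ncapd2, a condensin subunit, also covers the small RNA Scarna10 and ran from 229 FPKM in shCrebbp 4 to 60395 FPKM in shCrebbp 1, so its values are not taken for Ncapd2.

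Set against scramble as 1 group, the shCrebbp libraries gave no member past the threshold of an adjusted p under 0.05. In limma on log2(FPKM + 1), a scale that understates changes of low genes, 0 of 54 members passed, as did 0 of 11417 loci (0.0%), and 0 members reached an unadjusted p under 0.05, against 5.02% of all loci. The difference was negative for 36 members and positive for 18, with a median of -0.14, while 48.0% of all loci were lower and their median was 0.01. Leaving out single libraries moved the count of negative differences between 17, without shCrebbp 4, and 48. The share of all loci with a negative difference is not given for these fits. No member had groups without overlap (1.74% of all loci had lower and 1.58% higher values in shCrebbp with no overlap).

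The members of smallest p illustrate how far the groups ran into each other. Smc4, the ATPase core of condensin, measured 34.6, 29.6, 34.2 and 39.1 FPKM with shCrebbp (AO229 libraries first), against 39.1, 45.3, 41.8 and 36.9 FPKM with scramble. The groups overlapped by little and the levels were even, with a difference of -0.24 ± 0.13 on the log2 scale (SE; limma adjusted p = 0.915; exact two-sided permutation test, p = 0.0857). The smallest p that this test can give with 4 against 4 libraries is 0.0286. Spc24 of the NDC80 complex followed, at -0.43 ± 0.39. Nek2, a kinase that parts the centrosomes, measured 3.57, 4.59, 11.9 and 12.9 FPKM with shCrebbp, against 13.7, 17.0, 11.4 and 4.48 FPKM with scramble. Both AO229 libraries lay near scramble 4, and the AO228 libraries lay among the other scramble libraries (-0.49 ± 0.47, SE). Aurka, the centrosomal Aurora kinase (-0.23 ± 0.24), and Kif23, a motor of the central spindle (-0.34 ± 0.36), were the next of the lower members. On the other side stood Bub1 of the checkpoint (0.34 ± 0.35), Ndc80 of the kinetochore (0.27 ± 0.28), Bub3 (0.23 ± 0.25), Aurkb, the Aurora kinase of the centromere and midzone (0.27 ± 0.31), and the spindle motor Kif15 (0.21 ± 0.32). For these members after Smc4 the limma adjusted p lay between 0.917 and 0.950.

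The spread within shCrebbp was the main feature of these genes. The median SD of a member on the log2 scale was 0.72 within shCrebbp and 0.42 within scramble, while over all loci it was 0.32 and 0.31. It lay between the name prefixes. Scoring each library by the mean over the 52 members with 1 name in their row of log2(FPKM + 1) minus the mean of the 8 libraries gave -0.65 and -0.63 in the AO229 libraries, 0.48 and 0.59 in the AO228 libraries, and 0.04, 0.47, 0.02 and -0.34 in scramble 1 to 4. The AO229 libraries were the lowest of the 8 and the AO228 libraries the highest, with scramble 2 close to AO228 and scramble 4 between AO229 and the other scramble libraries.

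**Figure D1:**
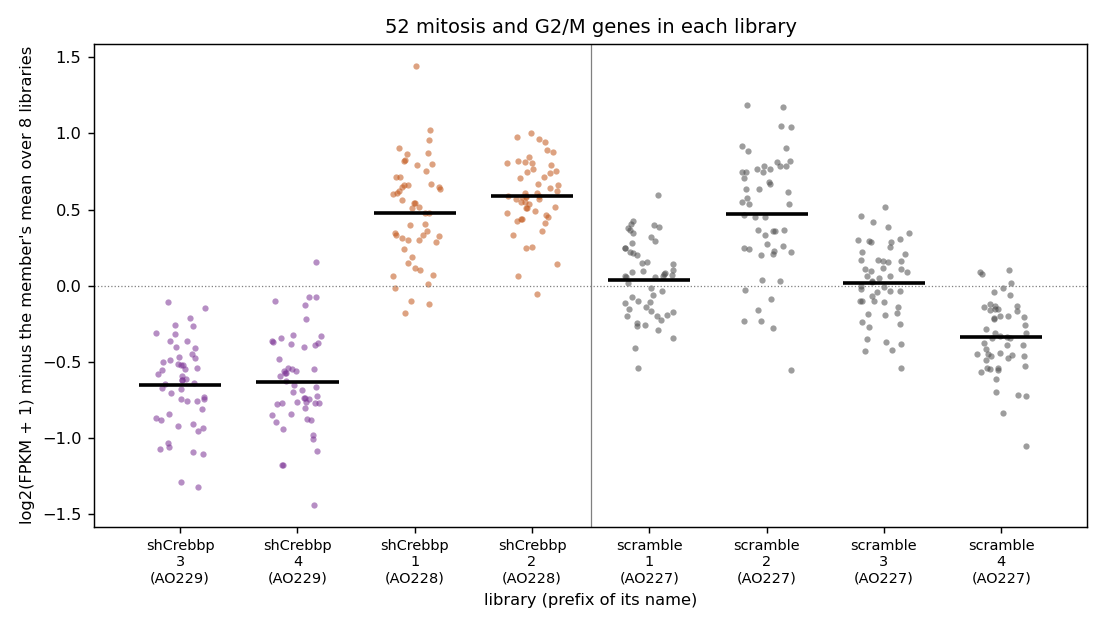
Each point is 1 of 52 members with 1 name in their row, in 1 library, as log2(FPKM + 1) minus the mean of that member over 8 libraries, and each bar is the mean over members. The AO229 libraries have means of -0.65 and -0.63, the AO228 libraries 0.48 and 0.59, and the scramble libraries -0.34 to 0.47.

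For single members the order was alike. One of the AO229 libraries was the lowest of the 8 for 49 members, 25 of them in shCrebbp 3 and 24 in shCrebbp 4. The highest value stood in shCrebbp 2 for 21 members, in shCrebbp 1 for 17 and in scramble 2 for 16. These ranks were taken for members alone, so no share of all loci stands beside these counts. Against the same 4 scramble libraries, AO229 had a lower mean for 54 of 54 members, with a median difference of -0.69 (47.6% of all loci were lower). AO228 had a higher mean for 52 of 54, with a median of 0.54 (51.4% of all loci were higher). These comparisons share their control. Neither gave a member past the threshold (AO229, 0.0175% of all loci, none of them lower; AO228, 0.0%). An unadjusted p under 0.05 was reached by 27 members in AO229, all lower (5.84% of all loci), and by 16 in AO228, all higher (4.98%). Values did not overlap with scramble for 34 members lower in AO229 (11.3% of all loci) and 20 members higher in AO228 (9.57%). The mean of all 4 shCrebbp libraries thus averages prefixes whose means lie on opposite sides of the scramble mean for most members.

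**Figure D2:**
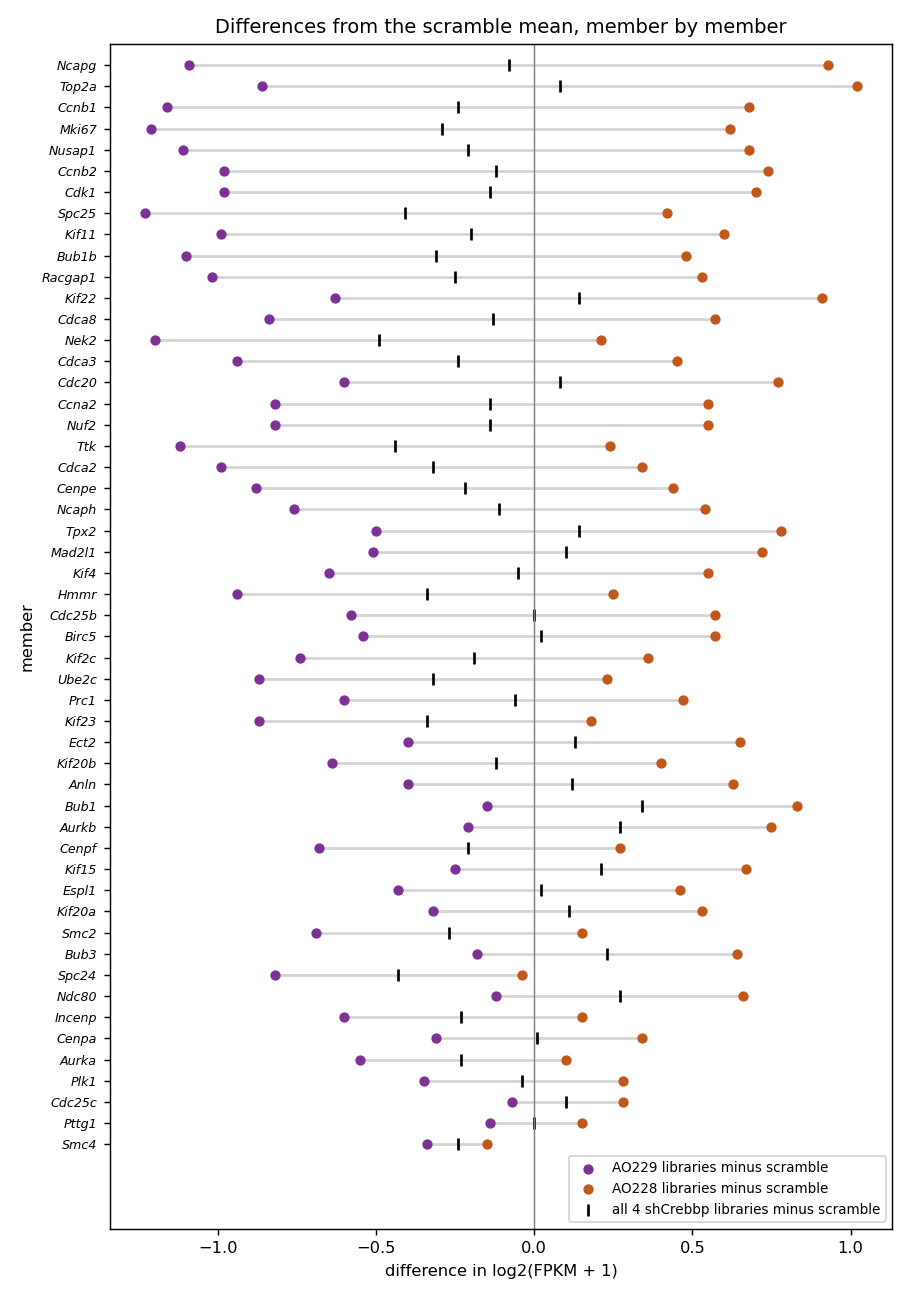
Difference from the scramble mean on the log2(FPKM + 1) scale for the AO229 libraries, the AO228 libraries and all 4 shCrebbp libraries, for 52 members with 1 name in their row, sorted by the difference between AO229 and AO228. All 52 AO229 points lie below 0, 50 of the 52 AO228 points lie above it, and the ticks of the whole group lie between -0.49 and 0.34.

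Compared directly, all 54 members had a lower mean in AO229 than in AO228, where 49.4% of all loci were lower. The median difference was -1.17 for members and 0.00 for all loci, and 36 members were lower by more than 1 on the log2 scale, as were 5.88% of all loci. Without the 2 merged loci, 52 of 52 were lower and 35 were lower by more than 1. With 2 libraries a side, 5 members passed, all lower in AO229: Racgap1, Nusap1, Top2a, Ncaph and Ccna2. Among all loci 1.28% passed, and 0.613% passed as lower in AO229. An unadjusted p under 0.05 was reached by 42 members, all lower in AO229 (8.64% of all loci). Values of AO229 and AO228 did not overlap for 51 members (25.4% of all loci were lower without overlap), and for 33 members both AO229 libraries lay below all 6 others (8.04%), while for 20 both AO228 libraries lay above all 6 others (7.08%). The count of 5 depended on single libraries: it was 0 when any shCrebbp library, scramble 1 or scramble 3 was left out, 4 without scramble 4 and 12 without scramble 2. It was also 0 without the filter on low values, with a prior without trend or with a block for the number that ends a library name, 10 with a filter at a mean of 5 FPKM and 22 with library weights.

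The share of loci listed at 0 and the levels of cell type markers are given here by prefix. The share of loci at 0 was 33.2 and 43.8% in the AO229 libraries and 46.0 and 36.3% in the AO228 libraries, so those ranges interleave. B cell markers summed to 3159 and 3374 FPKM in AO229 and 2675 and 3189 FPKM in AO228. T cell markers, 3 of 7 loci of which passed the filter, with Cd8a under 1 FPKM in every library, summed to 20.7 and 29.7 FPKM in AO229 and 23.7 and 34.5 FPKM in AO228. Macrophage and neutrophil markers, 3 of 9 of which passed with Elane at 0 and Cd14 and Mpo under 1 FPKM in every library, summed to 3.36 and 17.5 FPKM in AO229 and 3.91 and 5.89 FPKM in AO228. Their part in the result was not tested.

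**Figure D3:**
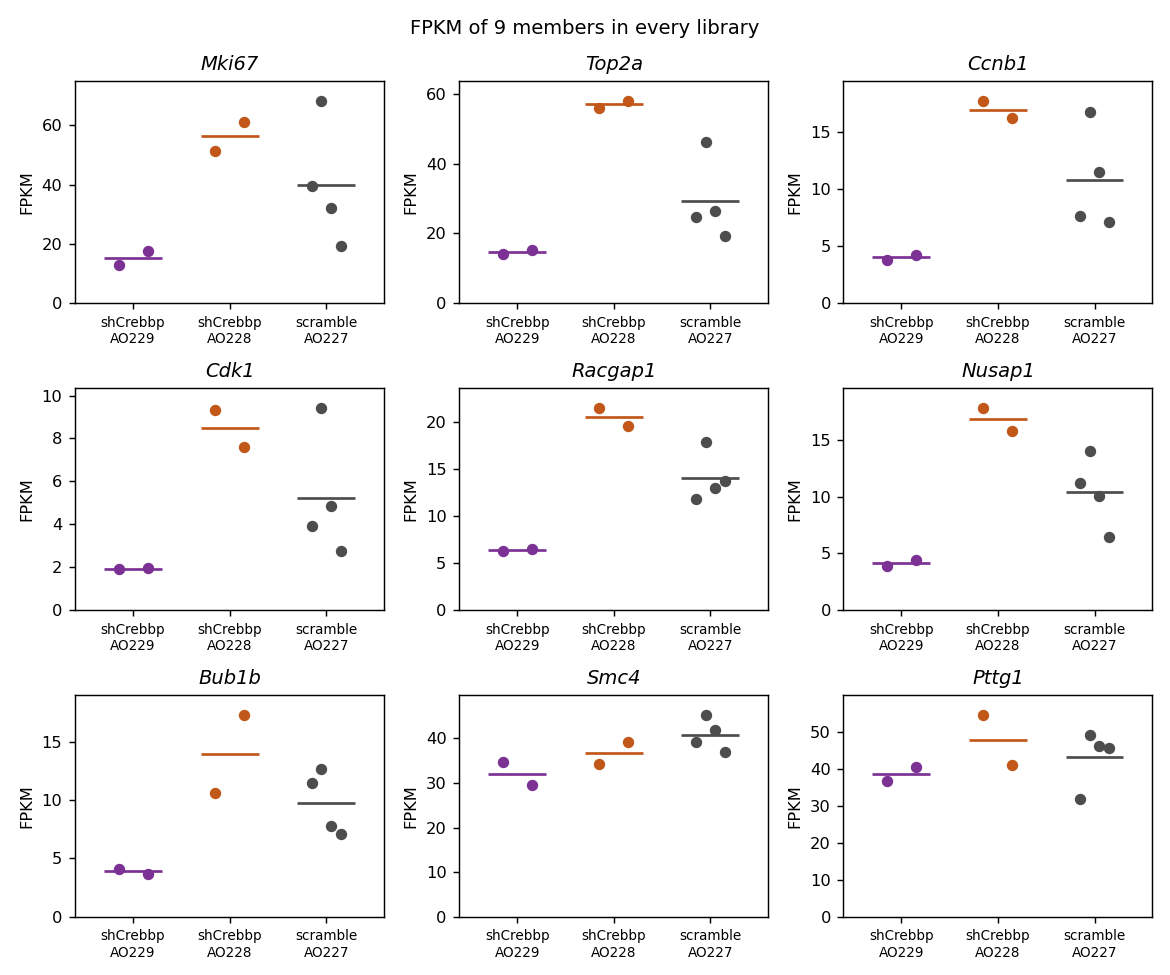
FPKM of 9 members in every library, with the mean of each prefix as a bar and libraries in the order of their numbers. In the first 7 panels both AO229 libraries lie below both AO228 libraries, for example at 3.78 and 4.21 against 17.7 and 16.2 FPKM for Ccnb1, while Smc4 and Pttg1 differ little.

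Among the 8 genes of mitotic entry, all had a lower mean in AO229 than in AO228, 6 reached an unadjusted p under 0.05 and 1 passed. For the counts of this role and the roles below, 49.4% of all loci were lower in AO229. Of all loci 8.64% were lower at an unadjusted p under 0.05, and 0.613% passed as lower. Ccna2, the cyclin A that activates CDK1 and CDK2 through S phase and G2, measured 5.32 and 5.20 FPKM in AO229, 15.8 and 14.7 FPKM in AO228, and 10.2, 12.3, 11.6 and 7.08 FPKM in scramble. All scramble libraries lay between the prefixes, and the difference of AO229 from AO228 was -1.37 ± 0.26 (SE; limma adjusted p = 0.0497; locus chr3:36552606-36571996, mm10). Ccnb1, the cyclin B that brings CDK1 to full activity, measured 3.78 and 4.21 FPKM in AO229, 17.7 and 16.2 FPKM in AO228, and 7.66, 16.7, 11.5 and 7.08 FPKM in scramble. The difference of -1.84 ± 0.36 stood just outside the threshold (limma adjusted p = 0.0520). Its kinase Cdk1 measured 1.89 and 1.96 FPKM in AO229, 9.33 and 7.61 FPKM in AO228, and 3.90, 9.42, 4.86 and 2.75 FPKM in scramble, with scramble 2 at the level of AO228 (-1.69 ± 0.43). Ccnb2 differed by -1.73 and Cdca3, a trigger of mitotic entry, by -1.38. Of the phosphatases that activate CDK1, Cdc25b differed by -1.15 and Cdc25c, one of the lowest members, by -0.35. The locus of Foxm1, a transcription factor of G2/M genes, measured 2.52 and 1.72 FPKM in AO229, 2.56 and 7.23 FPKM in AO228, and 4.25, 2.72, 4.83 and 3.89 FPKM in scramble. Here the AO228 value came from shCrebbp 2, and shCrebbp 1 was close to AO229 (-0.81 ± 0.42).

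The 3 mitotic kinases and Tpx2, which activates Aurora A on the spindle, were all lower in mean in AO229 and none passed. Plk1, the polo-like kinase that acts from entry to cytokinesis, measured 1.73 and 1.63 FPKM in AO229, 2.40 and 4.05 FPKM in AO228, and 3.29, 3.35, 1.51 and 1.92 FPKM in scramble. Its scramble libraries overlapped with both prefixes, and the difference was small beside its error (-0.63 ± 0.39). Tpx2 differed by -1.28 and Nek2 by -1.41. Aurka measured 2.84 and 2.25 FPKM in AO229, 4.01 and 5.13 FPKM in AO228, and 4.88, 4.59, 3.78 and 3.60 FPKM in scramble, with both AO229 libraries the lowest and shCrebbp 1 inside the range of scramble (-0.65 ± 0.27). All but Plk1 reached an unadjusted p under 0.05.

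In the chromosomal passenger complex, which corrects attachments at the centromere and then moves to the midzone, all 4 members were lower in mean in AO229 and 3 reached an unadjusted p under 0.05. Its kinase Aurkb measured 3.80 and 5.98 FPKM in AO229, 11.0 and 9.54 FPKM in AO228, and 6.05, 5.27, 8.07 and 4.06 FPKM in scramble. AO228 lay above all other libraries, while of AO229 shCrebbp 3 was the lowest and shCrebbp 4 stood inside the range of scramble (-0.96 ± 0.32; limma adjusted p = 0.175). The difference was -1.11 for Birc5 (survivin), -1.41 for Cdca8 (borealin) and -0.75 for the scaffold Incenp.

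The spindle checkpoint holds back anaphase until every kinetochore is attached. Of its 5 members 4 reached an unadjusted p under 0.05 and none passed. Bub1b (BubR1), which blocks the anaphase-promoting complex, measured 4.09 and 3.68 FPKM in AO229, 10.6 and 17.3 FPKM in AO228, and 11.4, 12.6, 7.78 and 7.07 FPKM in scramble. Both AO229 libraries lay below the other 6 (-1.58 ± 0.33; limma adjusted p = 0.0615). Mad2l1 differed by -1.23 and Ttk, the kinase that starts checkpoint signalling, by -1.36. Bub1 measured 1.16 and 1.82 FPKM in AO229, 3.39 and 4.42 FPKM in AO228, and 1.86, 2.02, 2.47 and 0.876 FPKM in scramble, so that AO228 stood apart and AO229 did not (-0.98 ± 0.39). Bub3 measured 26.1 and 24.8 FPKM in AO229, 55.4 and 37.3 FPKM in AO228, and 26.7, 36.4, 26.5 and 27.0 FPKM in scramble, with AO229 just under the lowest scramble library (-0.82 ± 0.24).

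Of the 7 centromere and kinetochore genes, 5 reached an unadjusted p under 0.05 between the prefixes and none passed. The differences were -1.65 for Spc25, -1.37 for Nuf2, -0.79 for Ndc80 and -0.79 for Spc24, the 4 subunits of the complex that grips microtubules. Ndc80 measured 5.11 and 4.24 FPKM in AO229, 9.40 and 8.18 FPKM in AO228, and 5.69, 7.67, 3.65 and 4.35 FPKM in scramble, so that AO228 lay above all other libraries and AO229 inside the range of scramble. Spc24 measured 3.40 and 2.53 FPKM in AO229, 4.30 and 7.72 FPKM in AO228, and 5.63, 12.5, 5.49 and 3.06 FPKM in scramble, with its highest value in scramble 2. For the kinetochore motor Cenpe the difference was -1.32, and for Cenpa, the histone variant that marks centromeres, it was -0.65. Cenpf, a large outer kinetochore protein expressed here at a low level, measured 0.775 and 0.528 FPKM in AO229, 1.42 and 3.13 FPKM in AO228, and 2.29, 1.02, 2.27 and 1.20 FPKM in scramble (-0.94 ± 0.44).

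All 6 spindle genes reached an unadjusted p under 0.05 and 1 passed. Nusap1, which bundles microtubules near chromatin, measured 3.91 and 4.37 FPKM in AO229, 17.8 and 15.8 FPKM in AO228, and 11.2, 14.1, 10.01 and 6.47 FPKM in scramble. Scramble lay wholly between the prefixes (-1.79 ± 0.31; limma adjusted p = 0.0434; locus chr2:119609532-119650160). Kif11, the motor that pushes the spindle poles apart, measured 4.06 and 5.38 FPKM in AO229, 14.1 and 18.4 FPKM in AO228, and 10.2, 15.1, 10.8 and 6.60 FPKM in scramble (-1.59 ± 0.34; limma adjusted p = 0.0648). The chromosome motor Kif22 differed by -1.54, Hmmr, a spindle pole protein, by -1.19 and the microtubule depolymerase Kif2c by -1.10. Kif15, a motor that helps keep the poles apart, measured 1.91 and 2.54 FPKM in AO229, 4.18 and 6.21 FPKM in AO228, and 2.36, 4.28, 2.24 and 2.76 FPKM in scramble, with shCrebbp 3 the lowest, shCrebbp 4 inside the range of scramble and scramble 2 above shCrebbp 1 (-0.93 ± 0.34).

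The 8 genes of the central spindle and cytokinesis were lower in mean in AO229, and 7 of them reached an unadjusted p under 0.05. Racgap1, the GTPase-activating subunit of centralspindlin, measured 6.21 and 6.44 FPKM in AO229, 21.5 and 19.5 FPKM in AO228, and 11.8, 17.8, 12.9 and 13.7 FPKM in scramble. It had the smallest p of the members, with scramble wholly between the prefixes (-1.55 ± 0.22; limma adjusted p = 0.0305; locus chr15:99620496-99651656). Kif23, its partner in centralspindlin, measured 3.66 and 4.42 FPKM in AO229, 7.86 and 11.3 FPKM in AO228, and 9.73, 13.4, 5.32 and 6.31 FPKM in scramble, with AO228 inside the range of scramble (-1.05 ± 0.39). The midzone motor Kif4 differed by -1.20, the bundler Prc1 by -1.07, Ect2, which activates RhoA at the cleavage site, by -1.05, Kif20b by -1.04, the ring scaffold anillin (Anln) by -1.03 and Kif20a by -0.85.

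Among the 8 members for chromosome structure, which include the merged locus of Ncapd2 as one that did not, 6 reached an unadjusted p under 0.05 and 2 passed. Top2a, the topoisomerase that untangles sister chromatids, measured 14.2 and 15.4 FPKM in AO229, 56.1 and 57.9 FPKM in AO228, and 24.7, 46.2, 26.4 and 19.3 FPKM in scramble. Libraries of a prefix were nearly equal, and all scramble libraries lay between the prefixes (-1.88 ± 0.34; limma adjusted p = 0.0443; locus chr11:98992947-99024583). Ncaph, a condensin subunit, measured 3.48 and 3.29 FPKM in AO229, 9.91 and 9.77 FPKM in AO228, and 8.38, 5.76, 5.99 and 5.98 FPKM in scramble (-1.31 ± 0.24; limma adjusted p = 0.0443; locus chr2:127103810-127133954). Mki67, which coats mitotic chromosomes and is the common marker of dividing cells, measured 12.8 and 17.7 FPKM in AO229, 51.5 and 61.1 FPKM in AO228, and 39.7, 68.2, 32.3 and 19.3 FPKM in scramble. Its highest value stood in scramble 2 and its scramble libraries were spread widely, so that a difference of -1.83 ± 0.47 did not pass (limma adjusted p = 0.0991). Ncapg had the largest difference of the 52 members with 1 name in their row, at -2.01, and its interval (chr5:45669915-45857540) is shared with a row for Lcorl and Gm3414. The intervals of Cdc25b and Anln, also described above, are longer still and are shared with 16 and 18 other rows. For Cdca2, which brings phosphatase 1 to chromosomes, the difference was -1.33 and for Smc2, the partner of Smc4, it was -0.85. Smc4 differed by -0.19 ± 0.18.

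Of the 4 genes of anaphase and mitotic exit, 2 reached an unadjusted p under 0.05. Cdc20, the activator of the anaphase-promoting complex, measured 6.07 and 5.20 FPKM in AO229, 15.4 and 16.9 FPKM in AO228, and 11.3, 12.3, 6.95 and 6.89 FPKM in scramble. AO229 lay below and AO228 above every scramble library (-1.37 ± 0.30; limma adjusted p = 0.0685). Ube2c, the ubiquitin-conjugating enzyme of that complex, differed by -1.10 and separase (Espl1) by -0.89. Pttg1 (securin), the inhibitor of separase, measured 36.7 and 40.4 FPKM in AO229, 54.5 and 41.1 FPKM in AO228, and 31.8, 49.2, 46.2 and 45.6 FPKM in scramble, with a difference of -0.29 ± 0.24 whose 95% interval ran from -0.84 to 0.26.

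**Figure D4:**
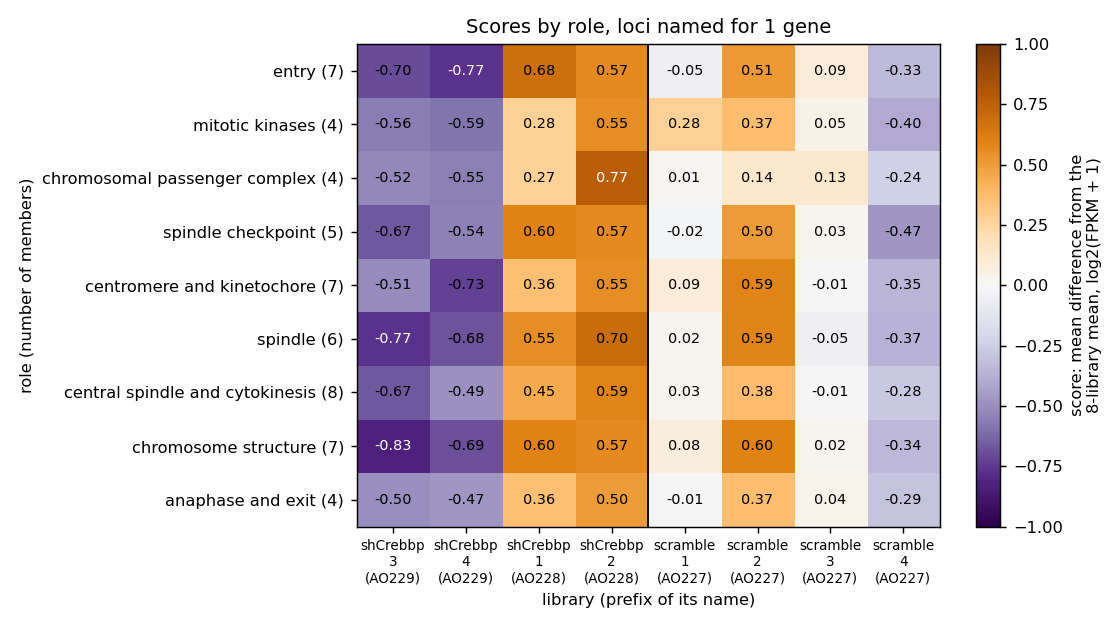
Score of each role in each library, the mean over its members with 1 name in their row of log2(FPKM + 1) minus the 8-library mean, with members per role in brackets. Every role is negative in both AO229 libraries (-0.83 to -0.47) and positive in both AO228 libraries (0.27 to 0.77).

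In every role the AO229 libraries had the 2 lowest scores, while the order of the AO228 libraries and scramble 2 varied. Scores of the 9 roles ran from -0.83 to -0.47 in the AO229 libraries and from 0.27 to 0.77 in the AO228 libraries. In scramble 2 they ran from 0.14, for the chromosomal passenger complex, to 0.60, for chromosome structure, and in scramble 4 from -0.47 to -0.24. Members varied together across libraries: with group means taken out, the median Pearson correlation over pairs of these 52 members was 0.83 over 8 libraries, and over pairs of every 4th locus tested (2855 loci) it was 0.00. With prefix means taken out, which leaves the spread among scramble libraries and within prefixes, it was 0.55 for members and 0.00 for those loci. Taking out group means leaves in the difference between AO229 and AO228. Members and the other loci share the libraries and their depth, and the correlations are a description. Libraries of a prefix lay close to each other: the median difference in size was 0.18 between the AO229 libraries and 0.25 between the AO228 libraries for these 52 members, against 0.22 and 0.34 for all loci. By promoter letters, the median difference of AO229 from AO228 was -1.12 for 34 members with CHR letters and -1.32 for 9 without them, and -1.34 for 32 members with CCAAT letters and -1.10 for 11 without them, leaving out Ncapd2. These are descriptions with no test.

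Genes of the same pathway outside the list were in part like its members. Of 83 other mitosis and G2/M genes tested, 68 were lower in AO229 than in AO228, with a median of -0.71; 33 reached an unadjusted p under 0.05, all lower, and 3 passed, against 49.4%, 8.64% and 0.613% of all loci for these measures. The 3 that passed were Cks2, a CDK-binding subunit (26.3 and 31.5 FPKM in AO229, 64.4 and 61.9 FPKM in AO228, 39.2 to 48.3 FPKM in scramble), the kinetochore scaffold Knl1 (-1.78 ± 0.33) and the abscission protein Cep55 (-1.37 ± 0.26). Of 56 genes of DNA replication and G1/S, 48 were lower, with a median of -0.64; 23 reached an unadjusted p under 0.05, all lower, and none passed. The examples of smallest p were Dbf4, the activator of the CDC7 kinase (-1.19 ± 0.26), the licensing factor Cdc6 (-1.54 ± 0.36) and the polymerase subunit Pola1 (-1.32 ± 0.32). Of 15 genes for MuvB, Myb, NF-Y and related regulators, 12 were lower, with a median of -0.22 and 4 at an unadjusted p under 0.05. Mybl1, a Myb factor of germinal centre B cells and germ cells, measured 8.32 and 16.4 FPKM in AO229, 72.0 and 39.0 FPKM in AO228, and 30.6, 37.0, 20.4 and 22.7 FPKM in scramble (-2.08 ± 0.41; limma adjusted p = 0.0522). Mybl2 (B-Myb) differed by -1.12 ± 0.31 and Tfdp1, the partner of E2F factors, by -1.30 ± 0.27. Of 7 brakes of G2/M, 4 were lower, close to the share of all loci, with a median of -0.19, among them the kinases Chek1 (-1.01 ± 0.35) and Wee1 (-0.97 ± 0.39), and Chek2 (-0.54 ± 0.33) was the third by p.

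Between shCrebbp and scramble none of these lists had a gene past the threshold. An unadjusted p under 0.05 was reached by 2 of the 83 other mitosis genes, Tuba1c (-0.42) and Mis12 (-0.63), by 1 of the 56 replication genes, Orc1 (-0.90), by 1 of the 15 regulators, the NF-Y subunit Nfya (0.50), and by none of the 7 brakes, while 5.02% of all loci reached it. Nfya measured 12.7, 10.2, 14.4 and 10.2 FPKM with shCrebbp, against 8.41, 8.16, 8.28 and 7.25 FPKM with scramble. All 4 shCrebbp libraries lay above all 4 scramble libraries, as at 1.58% of all loci, and the limma adjusted p was 0.915. The differences of Plk4 (-0.49), Pcna (-0.31), Cdk4 (0.28), E2f4 (0.26), Rbbp4 (0.21), Sfn (-0.38), Chek2 (0.46) and Cdkn1a (-0.44), named by the same rule, did not reach an unadjusted p under 0.05.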

How the data were processed

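RNA was extracted with Trizol and made into ribosomal RNA-depleted, stranded total RNA libraries, per the labels' protocols. The tools were CASAVA 1.8, TopHat2 and Cufflinks, on the build mm10, per the submitters' processing notes, which give no role for each. The authors deposited a single table of FPKM for loci and libraries. Its header names no unit, so FPKM was read from the form of the locus identifiers and the range of the values. Of its 13 sample columns 8 matched samples by name and were used, and 5 were not. Depth is unknown, so no counting interval was computed, and precision was read from the spread among libraries, with 4 per group. For AO229 and AO228, with 2 libraries each, the spread was pooled over all 8 libraries, so that it includes the spread among scramble libraries.

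Values were taken as log2(FPKM + 1) with no rescaling, and the 11417 loci that averaged 1 FPKM or more over 8 libraries were fitted with limma 3.58.1 in R 4.3.3 (moderated two-sided test with a trended prior, Benjamini-Hochberg adjustment over all loci, threshold 0.05). Prefixes were fitted as 3 coefficients. They are nested in the groups and were not a covariate. Differences are log2 differences with standard errors, and single members were also compared by exact permutation over 70 divisions of the libraries. Simulated data (5 draws of 200 changed genes among 11417) had the spread of each locus that was left after prefix means were taken out. In them 44.6% of 2-fold and 83.6% of 4-fold changes were found between shCrebbp and scramble, and 14.2% and 61.2% between AO229 and AO228. These changes were added on the log2(FPKM + 1) scale, where they stand for larger changes in FPKM at low loci. The draws for shCrebbp and scramble held no difference between AO229 and AO228. Members had a median SD of 0.72 within shCrebbp, against 0.32 for all loci, so the shares found between these groups do not apply to members. Within scramble the median SD was 0.42 for members and 0.31 for all loci. Noise was also drawn independently for each locus, whereas members varied together. The shares found between AO229 and AO228 therefore do not apply to members either. Locus starts were converted to count from 1. Promoter sequences are those of RefSeq for GRCm38.p6. Figures were drawn with Python 3.11.15 and matplotlib 3.10.9.

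The members, the roles and the other gene lists were chosen with earlier results of these data known. Values of each library are given for the 5 members of smallest p in each direction between shCrebbp and scramble, 12 anchor genes and up to 4 members by p between AO229 and AO228. Of each other list up to 3 genes by p are named in each comparison. The result of another marker list is not reported here. Ccna2, the fifth to pass between AO229 and AO228, was added after its values were seen. Alternatives were library weights, a prior without trend, quantile normalization, scaling by the median of ratios, a filter at a mean of 5 FPKM, no filter, pseudocounts of 0.1 and 0.01, summed rows of a symbol, each prefix alone, a block for the number that ends a library name, and each library left out. Leaving out scramble 2 with shCrebbp 3, and the 2 members in merged loci, were added after seeing the data.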

Additional observations from a re-analysis of the deposited data

Results flagged for a closer look

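In groups of 4 libraries, 3 of 48 groups of the 24 named members had a library far from the other 3 by Dixon's test, where chance gives about 1 in 20. Bub3 stood at 36.4 FPKM in scramble 2, Foxm1 with its neighbour at 7.23 FPKM in shCrebbp 2, and Ncaph at 8.38 FPKM in scramble 1.

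The libraries of the AO229 and AO228 prefixes differed past the threshold of limma for 5 members: Racgap1 (-1.55, adjusted p = 0.0305), Nusap1 (-1.79, 0.0434), Top2a (-1.88, 0.0443), Ncaph (-1.31, 0.0443) and Ccna2 (-1.37, 0.0497). Among all loci 0.613% passed as lower in AO229. These 5 members were picked by this comparison, so the order of their libraries in it is no further evidence. How many passed was not stable, as given below.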

How the results depend on the processing

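Between AO229 and AO228, every member fitted was lower in AO229 under every alternative (35 of 35 with a mean of at least 5 FPKM, 52 of 52 without merged loci, 54 of 54 otherwise), and the median, -1.17, was -1.53 and -1.51 with pseudocounts of 0.01 and 0.1 and lay between -1.31 and -1.11 under the other alternatives. How many passed was not stable. It was 22 members among 495 loci with library weights, 10 among 240 with a mean of at least 5 FPKM, 0 among 27 without a filter, 0 among 2 with a prior without trend and 0 among 12 without scramble 2 and shCrebbp 3. Leaving out 1 library gave 0 to 12 members among 2 to 276 loci, with 27 to 46 members at an unadjusted p under 0.05; a prefix left with 1 library is then assumed to vary like the other groups. Fewer loci tested and fewer libraries enter some of these by construction; otherwise the cause was not tested. With a replicate block for the number that ends a library name, 0 members among 7 loci passed. Deviations of same-numbered libraries correlated at 0.13, -0.13, 0.00 and -0.11. Scramble 2 shares its number with both shCrebbp 1 and shCrebbp 4, which carry different prefixes. These correlations therefore cannot decide whether the numbers pair the libraries.

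Between shCrebbp and scramble no alternative gave a member past the threshold. Loci called numbered 1 with the AO228 libraries alone, 3 with AO229 alone and 0 to 2 with 1 library left out. Members lower numbered 2 with AO228 alone (median 0.54), 8 without scramble 2 and shCrebbp 3 and 17 to 48 with 1 library left out, where the median lay between -0.34 and 0.09. An unadjusted p under 0.05 was reached by 9 members with AO228 alone, 25 with AO229 alone and 0 to 1 with 1 library left out. The share of all loci at that p, or with a lower mean, is not given for these fits. It is also not given for those between AO229 and AO228 with 1 library left out. The counts of members are therefore not set against it. As the group difference averages the prefixes, sign changes with a prefix alone restate the signs by prefix given above. The sign changed for 34 of the 54 members with AO228 alone and for 18 with AO229 alone. Among named members it did so as follows. With AO228 alone the differences were Nek2 0.21, Aurka 0.10, Kif23 0.18, Mki67 0.62, Ccnb1 0.68, Cdk1 0.70, Plk1 0.28, Bub1b 0.48, Kif11 0.60, Cenpf 0.27, Foxm1 0.15, Racgap1 0.53, Nusap1 0.68 and Ncaph 0.54. With AO229 alone they were Bub1 -0.15, Ndc80 -0.12, Bub3 -0.18, Aurkb -0.21, Kif15 -0.25, Top2a -0.86, Cdc20 -0.60 and Pttg1 -0.14. Without scramble 2 and shCrebbp 3 they were Nek2 0.00, Kif23 0.08, Mki67 0.38, Ccnb1 0.31, Cdk1 0.43, Plk1 0.17, Bub1b 0.06, Kif11 0.30, Racgap1 0.13, Nusap1 0.25 and Ncaph 0.05. Library weights gave Top2a -0.23, Cdc20 -0.17 and Pttg1 -0.04, the replicate block gave Top2a -0.15, Cdc20 -0.05 and Pttg1 -0.02, median-of-ratios scaling gave Pttg1 -0.00 and quantile normalization gave Plk1 0.01. With 1 library left out, the ranges that cross 0 were Ccnb1 -0.57 to 0.09, Cdc20 -0.17 to 0.34, Cdk1 -0.46 to 0.15, Kif11 -0.52 to 0.12, Kif15 -0.03 to 0.41, Mki67 -0.64 to 0.09, Ncaph -0.33 to 0.12, Nusap1 -0.54 to 0.11, Plk1 -0.24 to 0.08, Pttg1 -0.13 to 0.07, Racgap1 -0.53 to 0.02 and Top2a -0.24 to 0.41.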
